A study of Mus musculus with 12 samples.

Results

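Hemoglobin genes and a further gene of the red cell were examined in 12 libraries of RNA from the hippocampus of naturally aged mice. Hba-a1, Hba-a2, Hbb-bs and Hbb-bt encode the alpha and beta chains of adult hemoglobin, and Alas2 encodes the erythroid form of the first enzyme of heme synthesis. The members were chosen by name, as 5 of the 27833 genes in the deposited expression table, and all 5 were among the 13796 genes with a mean of at least 0.5 FPKM (reads per gene, divided by gene length and by library size) that entered the tests.

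All 12 libraries came from male wild-type C57BL/6J mice aged 20 months. The CON group received saline (3 libraries), the PQQ-L group received pyrroloquinoline quinone (PQQ), a redox-active quinone, at 5 mg/kg/day (5 libraries), and the PQQ-H group received PQQ at 10 mg/kg/day (4 libraries). Each was given by oral gavage of 0.2 mL for 14 days, and 6 mice had been assigned to each group. The comparison of PQQ with CON asks how the hippocampal transcriptome of aged mice differs after PQQ, and no young mice were sequenced. The methods describe transcardial perfusion of the mice with saline and then a fixative before the hippocampus was taken and either frozen or fixed, and the part on sequencing does not mention perfusion.

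Hemoglobin is assembled from a pair of alpha chains and a pair of beta chains, each holding a heme group with an iron atom that binds oxygen. Globin genes are transcribed in erythroid precursors of the marrow, in which Alas2 sets the supply of heme, and circulating reticulocytes still carry globin mRNA while mature red cells have no nucleus. In RNA from brain tissue, globin transcripts are widely known as a trace of blood held in the vessels, and some neurons and glia have also been described to transcribe them. In these bulk samples, fewer cells of a type and less RNA per cell cannot be told apart.

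The 5 genes lie at 3 places in the genome. In GENCODE M21 on GRCm38, Hba-a1 (ENSMUSG00000069919) spans bases 32283511 to 32284465 of chromosome 11 and Hba-a2 (ENSMUSG00000069917) bases 32296489 to 32297298, both on the plus strand. Hbb-bs (ENSMUSG00000052305) spans bases 103826534 to 103828096 of chromosome 7 and Hbb-bt (ENSMUSG00000073940) bases 103812524 to 103813996, both on the minus strand. Alas2 (ENSMUSG00000025270) spans bases 150547375 to 150570638 of chromosome X on the plus strand. The deposited values were made on mm39, a later build, so these positions serve as annotation alone.

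Within each cluster the adult genes are near copies. The leading annotated transcripts of Hba-a1 and Hba-a2 were identical at 537 of 538 aligned positions (99.8%), and those of Hbb-bs and Hbb-bt at 570 of 609 (93.6%). Of the 100-base windows of the Hba-a1 transcript, 56.5% also occurred in Hba-a2, and 74.5% of those of Hba-a2 occurred in Hba-a1. For the beta pair these shares were 62.6% of Hbb-bs and 54.8% of Hbb-bt. The transcripts used for Hba-a1 and Hbb-bt have 699 and 703 bases, while the deposited FPKM imply lengths of 559 and 630 bases. Their shares thus depend on the transcript chosen. With so much sequence in common, the division of reads within each pair is uncertain, since it depends on how the counting treated reads that map to both copies. If such reads were left out of the counts, the levels, the pair sums and the ratios between members would be affected too. Each comparison is also given with the values of each pair summed.

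The 250 bases before the RefSeq start of the members are shown because the levels of the 5 genes varied together across libraries. RefSeq (GRCm38.p6) held an entry for 5 of the 5 genes, and GENCODE M21 starts several of the genes further upstream than RefSeq does. The sequences are read 5′ to 3′ on the strand of the gene. Capitals mark every match on either strand to GATAA (the core of GATA factor sites), CACCC (bound by factors of the KLF family), CCAAT and ATATAA (a form of the TATA box), with the complement shown where the match lies on the other strand. No match overlapped a match of another motif. The Hba-a2 window is that of Hba-a1 shifted by a few bases, with 247 of 253 aligned positions identical and 0 mismatches, and is not repeated.
Hba-a1, chr11:32283422-32283671 (+): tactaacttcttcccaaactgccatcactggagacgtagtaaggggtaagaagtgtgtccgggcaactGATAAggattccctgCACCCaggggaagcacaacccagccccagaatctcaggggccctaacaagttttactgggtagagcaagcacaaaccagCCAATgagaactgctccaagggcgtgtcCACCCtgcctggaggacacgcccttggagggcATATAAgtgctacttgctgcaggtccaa
Hbb-bs, chr7:103827929-103828178 (-): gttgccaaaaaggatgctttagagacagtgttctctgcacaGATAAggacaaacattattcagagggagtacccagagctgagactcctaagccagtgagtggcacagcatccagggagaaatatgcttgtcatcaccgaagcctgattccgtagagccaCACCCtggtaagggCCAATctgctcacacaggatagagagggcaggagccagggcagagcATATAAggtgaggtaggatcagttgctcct
Hbb-bt, chr7:103813924-103814173 (-): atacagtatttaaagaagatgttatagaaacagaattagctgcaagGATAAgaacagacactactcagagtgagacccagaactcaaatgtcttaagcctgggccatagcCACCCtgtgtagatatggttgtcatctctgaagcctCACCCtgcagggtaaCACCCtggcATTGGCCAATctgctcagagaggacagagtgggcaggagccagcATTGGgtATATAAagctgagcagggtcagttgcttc
Alas2, chrX:150547167-150547416 (+): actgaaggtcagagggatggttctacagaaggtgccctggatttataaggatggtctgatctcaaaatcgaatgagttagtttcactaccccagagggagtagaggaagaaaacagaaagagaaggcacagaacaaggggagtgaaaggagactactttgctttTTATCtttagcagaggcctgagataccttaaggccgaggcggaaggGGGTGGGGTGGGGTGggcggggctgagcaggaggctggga

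Each of the globin windows held all of the motifs, with ATATAA 23 to 31 bases before the start. The CCAAT match of Hba-a1 lay at bases -88 to -84 and that of Hbb-bs at -76 to -72. Hbb-bt held 3 CACCC and 3 CCAAT matches, against 1 of each in Hbb-bs, and the beta windows were identical at 185 of 261 aligned positions (70.9%). The Alas2 window held 1 GATAA match, at bases -86 to -82 on the other strand, and 3 CACCC matches side by side between bases -40 and -26, and neither CCAAT nor ATATAA. Across 32851 RefSeq windows of the same length, GATAA occurred in 22.6%, CACCC in 52.0%, CCAAT in 33.8% and ATATAA in 9.1%, and 3.45% held the first 3 of these together. A match describes the letters of the window and does not show that a factor binds there. Whether these motifs have a part in the shared variation of the levels was not tested.

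Depth on genes ran from 29654553 to 38179496 reads (median 35168171). The labelled tissue was checked against marker genes. The 12 hippocampal neuron markers summed to 35.6 to 397 FPKM per library, while 10 striatal neuron markers summed to 37.2 to 3327 FPKM and exceeded the hippocampal sum in 5 libraries (CON 1, CON 3, PQQ-L 3, PQQ-H 1 and PQQ-H 2). In 4 of these libraries the striatal sum was 1327 FPKM or more, while PQQ-L 3 entered with 177 FPKM against 152 FPKM of hippocampal markers. Choroid plexus markers, a mark of the ventricular tissue that makes cerebrospinal fluid, summed to 1794 to 5977 FPKM in CON against 102 to 200 in PQQ-L and 78.2 to 95.5 in PQQ-H. The library with the highest (PQQ-H 2) and the library with the lowest (PQQ-L 3) member values are both among the 5, so the comparisons are also given without these 5 libraries.

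The beta chain gene Hbb-bs had the highest level of the members. In CON its values were 186, 59.8 and 108 FPKM. In PQQ-L they were 77.3, 144, 32.8, 57.9 and 84.2 FPKM. In PQQ-H they were 83.3, 346, 69.0 and 76.6 FPKM. The 3 groups overlapped, and a single PQQ-H library lay above every other library while the other PQQ-H libraries lay within the range of both CON and PQQ-L. The mean was 118 ± 63.5 FPKM in CON (SD, n = 3), 79.2 ± 41.3 in PQQ-L (n = 5) and 144 ± 135 in PQQ-H (n = 4).

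Hba-a1, an alpha chain gene, came second in level in all 12 libraries. Its CON values were 67.2, 24.5 and 39.0 FPKM. The PQQ-L values were 35.0, 48.8, 12.1, 20.9 and 31.5 FPKM. The PQQ-H values were 36.1, 122, 27.3 and 31.0 FPKM. Again CON 1, PQQ-L 2 and PQQ-H 2 stood highest in their groups, and the groups overlapped.

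For Hba-a2, the other adult alpha chain gene, CON had 27.1, 12.9 and 20.7 FPKM. PQQ-L had 14.5, 30.4, 5.36, 10.4 and 15.0 FPKM for this gene. PQQ-H had 17.6, 61.9, 13.4 and 19.2 FPKM. PQQ-H 2 was again highest and PQQ-L 3 lowest, while PQQ-L 2 lay above CON 1.

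Hbb-bt, the second adult beta chain gene, was at 29.7, 8.99 and 15.4 FPKM in CON. It was at 15.1, 24.9, 4.39, 10.3 and 14.0 FPKM in PQQ-L. It was at 12.7, 62.5, 11.5 and 11.7 FPKM in PQQ-H. Outside PQQ-H 2, the PQQ-H libraries lay close together and below the median of CON.

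Alas2, whose product joins glycine and succinyl-CoA in the mitochondrion, was far lower than the globin genes. Its level was 3.50, 1.19 and 1.57 FPKM in CON. In PQQ-L, Alas2 was at 1.39, 2.69, 0.436, 0.845 and 1.52 FPKM. In PQQ-H, Alas2 was at 1.06, 7.17, 1.17 and 1.03 FPKM. It rested on 31 to 461 reads per library, so that counting alone gave it an error of up to 18.0%, against 1.18% to 10.1% for the globin genes.

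**Figure D1:**
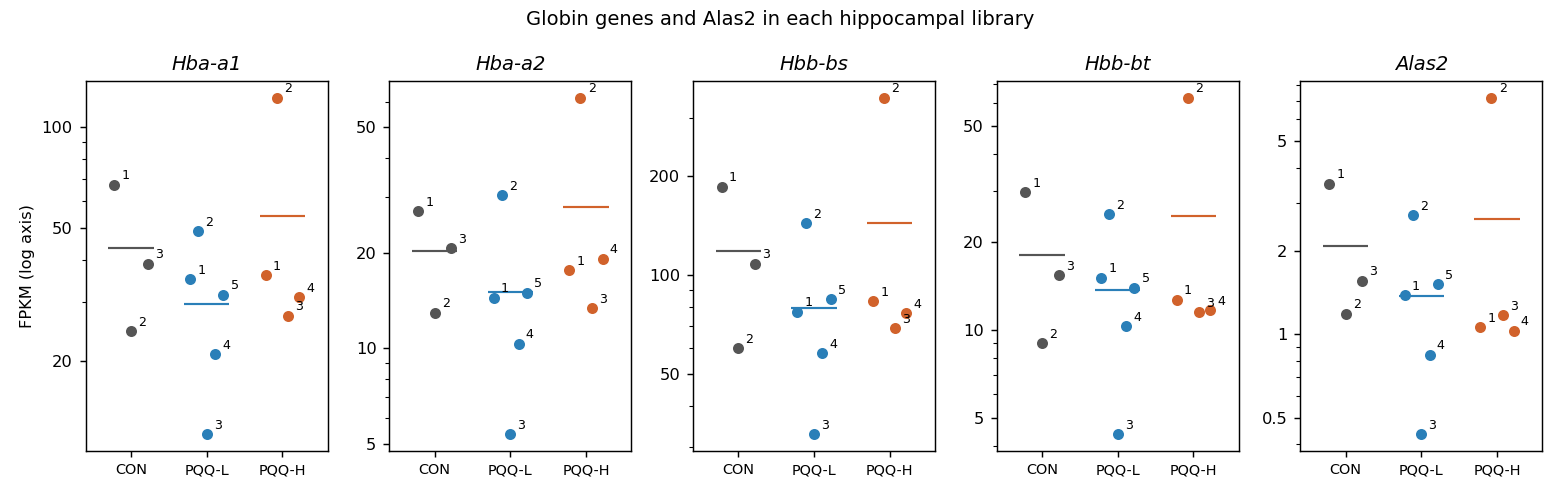
FPKM on a log axis (a separate scale in each panel) of the 5 genes in each of the 12 libraries, with points numbered by replicate and short lines at the group means. PQQ-H 2 is the highest and PQQ-L 3 the lowest library in every panel, and the groups overlap.

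The order of the members by level was the same in most libraries. Hbb-bs exceeded Hba-a1 in 12 of 12 libraries, by 2.21 to 2.95 times, and Hba-a1 exceeded Hba-a2 in 12 of 12, by 1.60 to 2.48 times. Hba-a2 and Hbb-bt were neighbours that did not separate, with Hba-a2 higher in 9 of 12 libraries and a ratio from 0.912 to 1.65. Hbb-bt exceeded Alas2 in all 12 libraries, by 7.56 to 12.2 times.

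The spread among mice was the main feature of these genes. The highest library exceeded the lowest by 10.1-fold for Hba-a1, 11.6-fold for Hba-a2, 10.6-fold for Hbb-bs, 14.2-fold for Hbb-bt and 16.4-fold for Alas2, whereas the median over all genes tested was 1.70-fold. The SD within groups of log2(FPKM + 0.1) was 0.84 to 1.03 for the members and 0.21 for the median gene, which placed the members between the 96.1 and 97.7 percentile of all genes tested. The share of reads that fell on the 4 globin genes ran from 0.00335% in PQQ-L 3 to 0.0364% in PQQ-H 2. CON 1 had the second share (0.0190%) and PQQ-L 2 the third (0.0152%), so each group held 1 library that was high against the rest of its group.

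**Figure D2:**
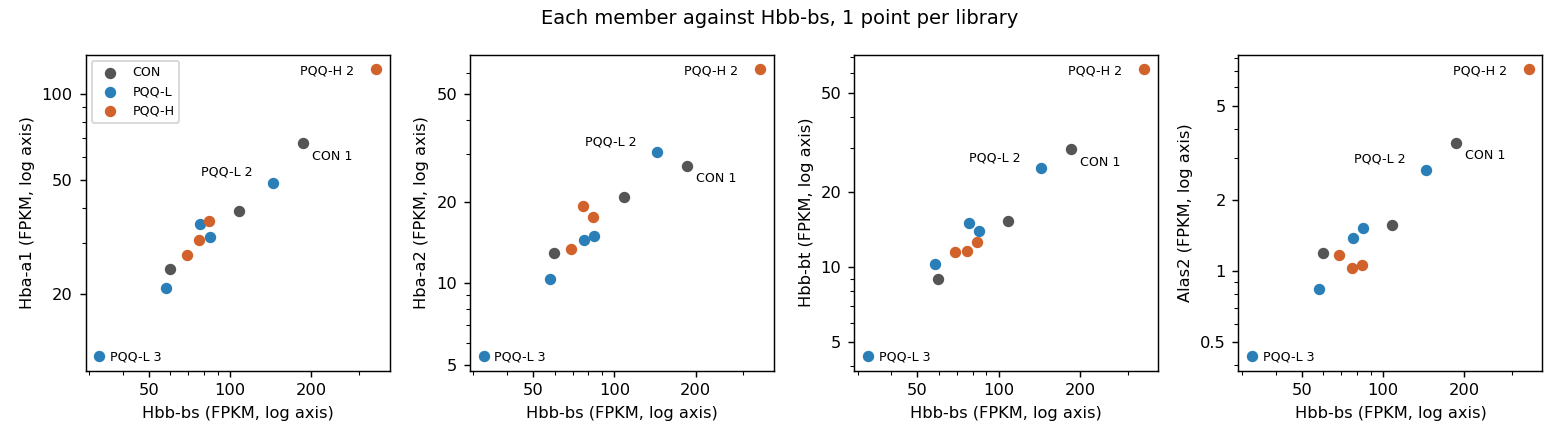
FPKM of Hba-a1, Hba-a2, Hbb-bt and Alas2 against FPKM of Hbb-bs, both on log axes, with 1 point for each of the 12 libraries and colours for the groups. Points of all groups follow one rising band from PQQ-L 3 to PQQ-H 2.

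The members moved together from library to library. Over 12 libraries and 10 pairs of members, Pearson's r of log2(FPKM + 0.1) was 0.943 (Hba-a2 with Alas2) to 0.990 (Hba-a1 with Hbb-bs), and Spearman's rho was 0.811 to 0.979. In a two-sided permutation test with 100000 resamples, the p adjusted over the 10 pairs was at most 2e-05 for r and 0.00216 for rho, and 1e-05 is the smallest p that these permutations can give. Without PQQ-H 2 and PQQ-L 3, the libraries farthest from the median, r was 0.822 to 0.972. For deviations from the group means r was 0.956 to 0.993, and over the 7 libraries in which hippocampal markers exceeded striatal ones it was 0.830 to 0.964. Within the alpha and beta pairs, near copies may share reads. Alas2, on another chromosome than either cluster, had an r of 0.970 with Hba-a1 and of 0.981 with Hbb-bs.

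The proportions between the chains varied far less than the levels. Summed beta globin was 2.03 ± 0.179 times summed alpha globin in FPKM (SD, n = 12), from 1.76 in PQQ-H 4 to 2.29 in CON 1. By group this ratio was 2.06 ± 0.224 in CON, 2.08 ± 0.124 in PQQ-L and 1.94 ± 0.213 in PQQ-H, with overlap between all groups. The ratio of Hba-a1 to Hba-a2 was 2.03 ± 0.272 over the 12 libraries, from 1.60 to 2.48. Hbb-bs was 6.22 ± 0.670 times Hbb-bt and made up 86.0% ± 1.29 of the adult beta signal. Alas2 was at 0.959 ± 0.165 FPKM for each 100 FPKM of globin, lowest in PQQ-H 1 (0.709) and highest in PQQ-H 2 (1.21). The 7 libraries in which hippocampal markers exceeded striatal ones gave a beta to alpha ratio of 1.76 to 2.18 and an Alas2 proportion of 0.745 to 1.12. No test was run on these ratios, and their size depends on how reads shared by near copies were counted.

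**Figure D3:**
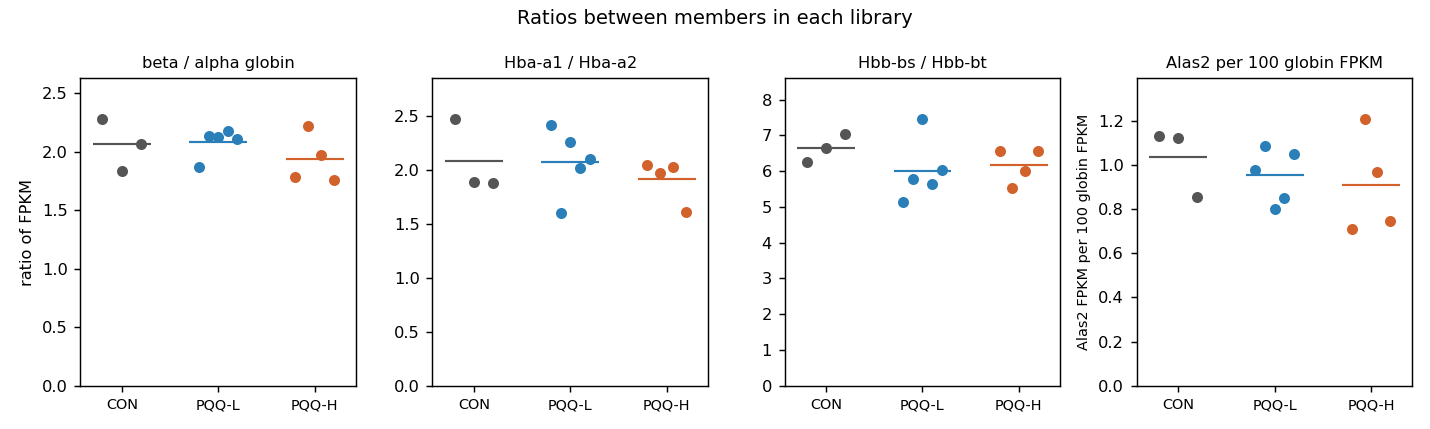
Ratios of FPKM between members in each library (points) with group means (short lines), on axes that start at 0. The beta to alpha ratio stays between 1.76 and 2.29 in all 12 libraries, and the groups overlap in each panel.

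No member passed limma's moderated test between PQQ-L and CON. The log2 fold change (log2FC, on the log2(FPKM + 0.1) scale) was -0.59 for Hbb-bs (SE 0.59, 95% interval -1.87 to 0.70, adjusted p = 0.509) and -0.58 for Hba-a1 (SE 0.55, interval -1.78 to 0.62, adjusted p = 0.483). It was -0.57 for Hba-a2, -0.43 for Hbb-bt and -0.63 for Alas2, with adjusted p of 0.496, 0.670 and 0.534 in the same limma fit. All 5 estimates were negative, but the libraries are shared between members that move together, so the 5 do not count as separate evidence. At |log2FC| above 1 and an adjusted p below 0.05, 0 of 5 members were called, where 0.471% of all genes tested were called. At an unadjusted p below 0.05 the limma count was also 0 of 5 (20.5% of all genes), voom on recovered reads called 0, and no member had groups that did not overlap (10.6% of all genes). With the FPKM of each pair summed before the fit, log2FC was -0.58 for alpha globin and -0.56 for beta globin (limma adjusted p = 0.486 and 0.531). Leaving out 1 library at a time moved Hbb-bs between -1.0 (without CON 2) and -0.18 (without CON 1), Hba-a1 between -0.94 and -0.21 and Alas2 between -0.94 and -0.20 for the same libraries, and Hba-a2 between -0.88 (without PQQ-L 2) and -0.26 (without PQQ-L 3). The median log2FC of the members was -0.58, against -0.03 over all genes tested (-0.03 in PQQ-H vs. CON and -0.02 between the doses). Without the 5 libraries in which striatal markers exceeded hippocampal ones, which leaves CON 2 as the only CON library and assumes that it varies like the other groups, the direction turned for all 5, with log2FC of 0.41 for Hba-a1, 0.32 for Hba-a2, 0.52 for Hbb-bs, 0.76 for Hbb-bt and 0.30 for Alas2.

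Between PQQ-H and CON the estimates lay closer to 0. The log2FC was 0.063 for Hbb-bs (SE 0.62, 95% interval -1.28 to 1.41, limma adjusted p = 0.980), 0.13 for Hba-a1, 0.25 for Hba-a2 (SE 0.59, interval -1.03 to 1.53), 0.17 for Hbb-bt and -0.083 for Alas2. The adjusted p in limma was 0.910 to 0.980 over the 5 genes. None of the 5 was called (0.819% of all genes tested), 0 had an unadjusted p below 0.05 with limma or voom (9.73% of all genes with limma), and none had groups apart (7.08%). The summed pairs gave 0.17 for alpha and 0.078 for beta globin (limma adjusted p of 0.940 for alpha globin, and higher for beta globin). For Hbb-bs the interval reaches from 0.410 to 2.66 times the CON level, so differences within those limits cannot be resolved with these libraries. Without PQQ-H 2 the direction turned for the globin genes, with log2FC of -0.36 for Hba-a1, -0.22 for Hba-a2, -0.48 for Hbb-bs and -0.42 for Hbb-bt, and without CON 1 Alas2 turned to 0.35. Without the 5 libraries named above, PQQ-H 3 and PQQ-H 4 were set against the single CON 2 library. The log2FC was then 0.25 for Hba-a1, 0.31 for Hba-a2, 0.28 for Hbb-bs, 0.36 for Hbb-bt and -0.10 for Alas2. With PQQ-H 2 alone left out, the other 3 PQQ-H libraries had 76.3 ± 7.17 FPKM of Hbb-bs and 1.09 ± 0.0748 FPKM of Alas2.

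Between PQQ-H and PQQ-L all 5 estimates were positive, at 0.65 on the log2 scale for Hbb-bs (SE 0.54, 95% interval -0.54 to 1.83, limma adjusted p = 0.644). The log2FC was 0.72 for Hba-a1, 0.82 for Hba-a2 (SE 0.51, interval -0.30 to 1.95), 0.60 for Hbb-bt and 0.55 for Alas2, with limma adjusted p of 0.587 to 0.720. The count called was 0 of 5, as for all genes in this comparison (0%), with 0 of 5 at an unadjusted p below 0.05 (8.15% of all genes) and 0 of 5 with groups apart (4.76%). The summed pairs gave 0.75 for alpha and 0.64 for beta globin (limma adjusted p = 0.600 and 0.650). PQQ-H 2 carried much of the difference: without it the log2FC was 0.10 for Hbb-bs, 0.22 for Hba-a1, 0.35 for Hba-a2, 0.0033 for Hbb-bt and -0.11 for Alas2. Without the same 5 libraries it was -0.010 to -0.40, and no member was called.

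**Figure D4:**
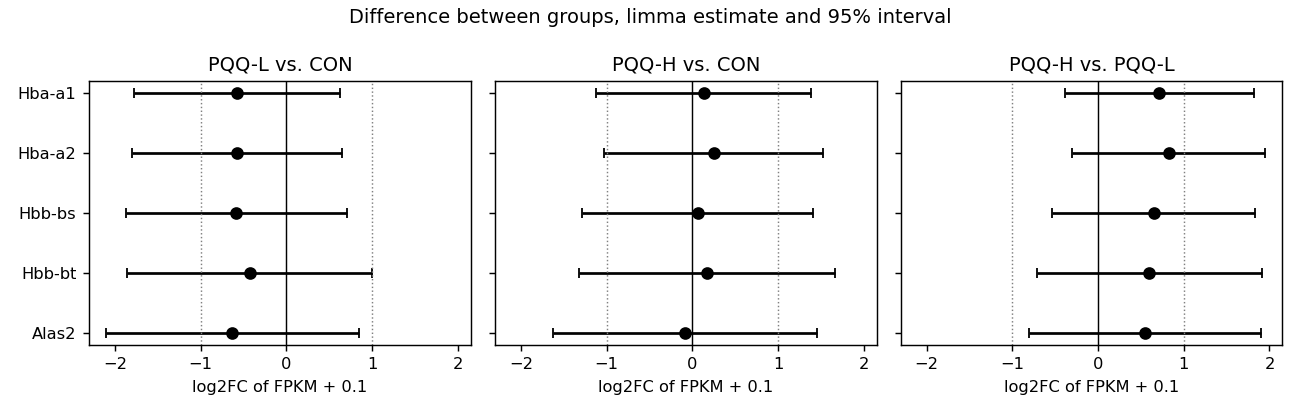
log2FC of each member (points) with its 95% interval (bars) from the limma fit of 12 libraries, for the 3 comparisons, with dotted lines at the fold threshold of 1 on the log2 scale. Every interval includes 0.

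The names of the libraries open with the letter L (7 libraries) or R (5), which the labels do not explain. Within the L libraries the PQQ-L minus CON difference of mean log2(FPKM + 0.1) was -0.39 to 0.03 over the members (2 against 2 libraries), and within the R libraries it was -1.46 to -1.02 (3 against 1). PQQ-H minus CON was 0.58 to 0.82 within L (3 against 2) and -1.67 to -0.49 within R (1 against 1), so the direction turned with the letter. PQQ-H 2 is an L library, and CON 1, the highest of CON, is the only R library of its group. The letter and these high libraries cannot be told apart. PQQ-H minus PQQ-L was 0.80 to 0.97 within L and -0.21 to 0.52 within R. With the letter as a covariate over all 12 libraries, limma gave -0.65 to -0.45 for PQQ-L vs. CON, -0.076 to 0.26 for PQQ-H vs. CON and 0.58 to 0.87 for PQQ-H vs. PQQ-L, and 0 members were called.

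The reported genes that define the red cell but are not globins were near 0. Slc4a1, the anion exchanger of the red cell membrane, had 0 to 17 reads per library outside PQQ-H 2 and 31 in PQQ-H 2. Ahsp, the chaperone of free alpha chains, had at most 3 reads, Klf1, the factor that switches on adult beta globin, at most 6, Car1, a carbonic anhydrase, at most 8, and Hemgn (hemogen) at most 1. Together these 5 genes had 44 reads in PQQ-H 2, of which 31 were on Slc4a1, and 1 in PQQ-L 3. The 5 members had 12240 and 1230 reads in the same pair of libraries. The other libraries had 5 to 24 reads on the 5 red cell genes, in an order that differed from that of the members. CON 1 had 14, PQQ-L 2 had 7 and PQQ-H 4 had 24, against 7004, 6010 and 2956 reads on the members. Gata1, the leading factor of erythroid transcription, was listed above 0 in 1 library (0.0134 FPKM in PQQ-L 5). Of the other genes of the globin clusters, Hbq1a, Hbq1b and Hbb-y, the embryonic beta-like gene, had at most 8 reads in any library and were not tested, and 4 more were not analysed here.

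Of 3 globins outside the clusters, Cygb and Ngb, which brain cells make, were tested. Mb, myoglobin, had at most 10 reads in any library and was not tested. Cygb, cytoglobin, a globin of fibroblast-like cells and some neurons, was at 41.2 ± 12.6 FPKM in CON, 33.4 ± 2.80 in PQQ-L and 36.9 ± 2.98 in PQQ-H, and Ngb, neuroglobin, was at 2.24 ± 1.46, 2.05 ± 2.48 and 0.925 ± 0.449 FPKM. Neither was called, and their r with the mean of the members was 0.412 and -0.19. Of 16 genes of heme synthesis and its transport, 0 were called in any comparison. Alad, the second enzyme of the pathway, was at 7.44 ± 0.477 FPKM in CON, 3.94 ± 0.631 in PQQ-L and 4.61 ± 1.06 in PQQ-H. Its log2FC was -0.91 (limma adjusted p = 0.0501) and -0.71 (limma adjusted p = 0.143). CON lay above every PQQ library (the PQQ groups overlap each other) although the threshold was not met. Choroid plexus markers also set CON apart from both PQQ groups, and the part of that tissue in the Alad values was not tested. Groups did not overlap for 10.6% of all genes tested in PQQ-L vs. CON and for 7.08% in PQQ-H vs. CON. Flvcr2, a membrane transporter related to the heme exporter Flvcr1, had log2FC of -0.82 in both comparisons with CON (limma adjusted p = 0.0867 and 0.0843). Alas1, the form of the enzyme made in all tissues, was at 16.5 ± 0.828, 16.3 ± 0.814 and 16.3 ± 0.666 FPKM in CON, PQQ-L and PQQ-H. The median log2FC of the 16 genes was -0.17 for PQQ-L vs. CON and -0.11 for PQQ-H vs. CON.

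Breakdown of heme and storage of iron gave no called gene either. Of 7 tested genes of heme breakdown, Blvrb, a biliverdin reductase, had a log2FC of -1.26 in PQQ-L vs. CON (limma adjusted p = 0.170), and Hmox1, heme oxygenase, was at 3.59 ± 0.685 FPKM in CON, 3.25 ± 0.491 in PQQ-L and 4.11 ± 0.304 in PQQ-H. Among 11 genes of iron handling, Hfe, which tunes iron sensing, had log2FC of -0.81 (limma adjusted p = 0.0533) and -0.78 (adjusted p = 0.0571), and Cp, ceruloplasmin, -0.80 and -0.66. The median log2FC of the iron genes was -0.0012 for PQQ-L and -0.039 for PQQ-H against CON.

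In the list of red cell membrane and cytoskeleton, 1 gene of 11 tested was called lower in both PQQ groups than in CON. In the list of red cell cytosol and maturation it was 1 of 12. The first was Aqp1, a water channel of red cells that is also abundant in choroid plexus, with log2FC of -4.01 (limma adjusted p = 0.000363) in PQQ-L and -4.74 (adjusted p = 0.000102) in PQQ-H against CON. Its values were 5.78 ± 2.81 FPKM in CON, 0.247 ± 0.111 in PQQ-L and 0.101 ± 0.00857 in PQQ-H, and its r with the members was 0.0681. The second was Ucp2, a mitochondrial carrier found in many cells, with log2FC of -1.39 (limma adjusted p = 0.0357) and -1.29 (adjusted p = 0.0484). In the same comparisons 0.471% and 0.819% of all genes tested were called, and 11 and 12 of 14 tested choroid plexus markers were called lower. The part of choroid plexus tissue in the values of Aqp1 and Ucp2 was not tested, nor was its part in those of Flvcr2, Blvrb, Hfe and Cp. The median log2FC was 0.012 and -0.013 for the membrane list and -0.31 and -0.12 for the cytosol list. Among 6 tested erythroid transcription factors none was called, and Lmo2 and Bcl11a, which neurons or vessels also express, had log2FC of -0.87 and 0.71 in PQQ-L vs. CON (limma adjusted p = 0.249 and 0.235).

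Genes of other blood cells had low sums, and none of the tested genes of blood cells or the vessel wall was called. The 9 platelet genes summed to 3.58 to 9.34 FPKM per library and the 9 neutrophil genes to 0.80 to 6.56 FPKM. Gp1bb was the largest part of the platelet sum (mean 3.36 FPKM), and Pf4 came next with a mean of 0.768 FPKM. Of these, 2 platelet genes (Gp1bb and Pf4) and 2 neutrophil genes (S100a8 and S100a9) passed the filter on low values, and none was called. Monocyte markers summed to 1.31 to 2.44 FPKM, with Vcan as the only one tested and the largest part of the sum (mean 1.11 FPKM). The 9 lymphocyte genes summed to 0.31 to 1.04 FPKM with 0 tested. The 14 endothelial markers summed to 147 to 203 FPKM in CON, 133 to 169 in PQQ-L and 127 to 221 in PQQ-H, highest in PQQ-H 2. None was called, with a median log2FC of -0.25 and -0.16 against CON, and Kdr and Tie1, receptors of the endothelium, had log2FC of -0.55 and -0.45 in PQQ-H vs. CON (limma adjusted p = 0.258 and 0.270). For 8 tested genes of pericytes and vascular smooth muscle the medians were -0.26 and -0.22, with Acta2 at -0.43 and Vtn at -0.33 in PQQ-L vs. CON, and none was called.

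**Figure D5:**
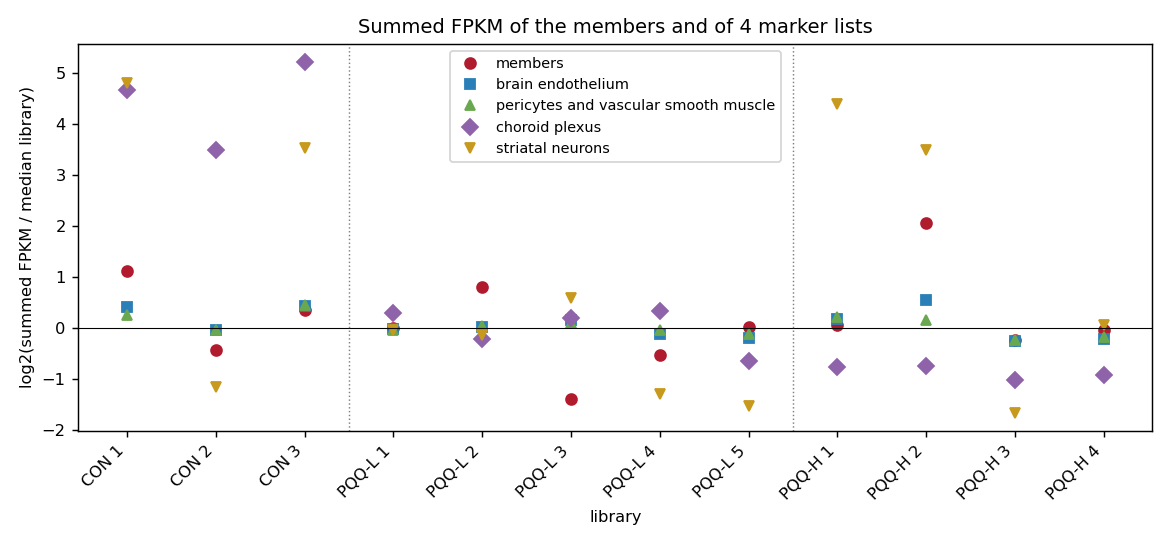
log2 of the summed FPKM of the 5 members and of 4 marker lists in each library, relative to the median library of each list. The members peak in PQQ-H 2 and are lowest in PQQ-L 3, endothelial and mural lists vary little, choroid plexus is high in the 3 CON libraries and striatal markers in CON 1, CON 3, PQQ-H 1 and PQQ-H 2.

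The genes most like the members were looked up as a description. For 13791 other genes, Pearson's r was taken over the 12 libraries between log2(FPKM + 0.1) and the mean of the 5 members. It exceeded 0.9 for 3 genes and 0.8 for 43. The nearest was Lcn2 (r = 0.951), an iron-siderophore binding protein of neutrophils and inflamed tissue, which ran from 0.131 FPKM in PQQ-L 3 to 5.03 in PQQ-H 2 on 4 to 139 reads per library. Without PQQ-H 2 and PQQ-L 3 its r was 0.907. Next came Slco2b1 (r = 0.915), an organic anion transporter, Ccdc122 (0.908), Srarp (0.898), Cldn10 (0.897), a claudin, and Myo1f (0.869), a myosin of white blood cells. The list closed with Pabpc1 (0.851), Rps2 (0.840), Psmg1 (0.840) and Eif3i (0.840), of which all but Psmg1, a proteasome chaperone, act in translation. Apart from Lcn2 and Srarp, these genes varied by at most 2.20-fold between libraries (Myo1f), far less than the members. Among the lists above, the endothelial genes Cldn5 (r = 0.824) and Ly6c1 (0.726) stood nearest. The endothelial list did not move as a whole, since r over its 14 markers ran from -0.42 (Kdr) to 0.824 (Cldn5). The libraries share depth and composition across all these genes, and 28 genes had an r below -0.8.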

How the data were processed

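RNA-seq of 12 hippocampal libraries (3 CON, 5 PQQ-L, 4 PQQ-H) was analyzed. The authors extracted RNA with TRIzol, used fastp to filter, HISAT2 to map and HTSeq-count to count the reads. They deposited FPKM for 27833 genes, on mm39 per the submitters' processing notes. The annotation, strandedness and program versions are not given in the sources used here. Their DESeq2 test was not repeated.

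Whole reads were recovered from the deposited FPKM (tolerance 0.02 reads) for 100% of 25563 genes above 0 in more than 1 library, a step also tested on simulated reads. Poisson errors cover counting only.

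limma 3.58.1 in R 4.3.3 was fitted to log2(FPKM + 0.1) over 12 libraries and 13796 genes with a mean of at least 0.5 FPKM, with trend and Benjamini-Hochberg adjustment. Log2FC of low genes is understated by the pseudocount. The limma step was tested on simulated data. Ratios, correlations and motif searches were computed in Python 3.11.15 (Biopython 1.88, scipy 1.17.1, numpy 2.4.6, pandas 2.3.3, matplotlib 3.10.9).

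The members and the 17 lists of other genes were chosen with earlier results of these data known. Besides the members, the text names called genes of each list (or the smallest p), a set of red cell genes (a few are not reported here), and the 10 genes most like the members. Alas1, Hmox1, Cldn5 and Ly6c1 were added after their values were seen. Samples were grouped by their labels. The libraries are taken as separate mice because the numbers in their names differ, and p-values measure the spread between libraries. That these numbers stand for animals is assumed. Among the 19 pairs of libraries within groups none was a duplicate (chi-square per degree of freedom of at least 18.8).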

Additional observations from a re-analysis of the deposited data

Results flagged for a closer look

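In the PQQ-H group of 4 libraries, PQQ-H 2 lay far above the other 3 for each of the 5 members. Its values were 122 FPKM for Hba-a1, 61.9 for Hba-a2, 346 for Hbb-bs, 62.5 for Hbb-bt and 7.17 for Alas2. In FPKM, the gap to the nearest library took up 0.880 to 0.977 of the range of the group, above Dixon's 95% critical value for 4 samples. The same library had the most reads on Slc4a1 and the highest endothelial sum (221 FPKM), and 1327 FPKM of striatal markers. The part of these in its globin values was not tested.

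The ratio of beta to alpha globin in PQQ-L 1 was 1.87, below the other 4 PQQ-L libraries, which lay between 2.11 and 2.18 (gap 0.779 of the range, above the critical value for 5 samples). The ratio of Hba-a1 to Hba-a2 in PQQ-H 4 was 1.61, against 1.97 to 2.05 in the other 3 libraries of its group (gap 0.833 of the range). In all, 7 of 18 combinations of group and measure stood apart in this way. For normally distributed values chance does so in about 1 of 20 groups. The gaps were taken on FPKM and on ratios of FPKM, which were not checked for a normal distribution. They were not taken on the log2 scale of the limma tests, so that rate cannot be applied to this count. The members are also not independent of each other.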

How the results depend on the processing

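Under 28 alternatives for each of the 3 comparisons, 0 members were called throughout, and of 420 member estimates 388 kept their direction and 32 turned. The smallest adjusted p in limma was 0.251, for Hbb-bs in PQQ-L vs. CON without CON 2. The smallest unadjusted p in limma was 0.0404, for Hba-a2 in PQQ-H vs. PQQ-L without PQQ-L 2 (log2FC 1.13). The cause of each turn was not tested.

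In PQQ-H vs. CON, array quality weights gave -0.20 for Hba-a1, -0.27 for Hbb-bs and -0.22 for Hbb-bt, and Alas2 was 0.00038 with a pseudocount of 1 and 0.10 with the replicate number as a block. The block turned no other estimate and left the count called at 0. Equal replicate numbers do not mark shared mice, and the correlation of their deviations from the group means ran from -0.62 to 0.72. Without CON 1 and PQQ-H 2 together, an alternative chosen after seeing the data, Hbb-bs was -0.08 in PQQ-H vs. CON, Hbb-bt 0.016 in PQQ-L vs. CON and Alas2 -0.11 in PQQ-H vs. PQQ-L. Without the 5 libraries in which striatal markers exceeded hippocampal ones, also chosen after seeing the data, log2FC in PQQ-L vs. CON was 0.41 (Hba-a1), 0.32 (Hba-a2), 0.52 (Hbb-bs), 0.76 (Hbb-bt) and 0.30 (Alas2), and in PQQ-H vs. PQQ-L it was -0.16, -0.010, -0.24, -0.40 and -0.40 in the same order.

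Leaving out 1 library at a time gave, for PQQ-H vs. CON, -0.36 to 0.51 for Hba-a1, -0.22 to 0.51 for Hba-a2, -0.48 to 0.46 for Hbb-bs, -0.42 to 0.61 for Hbb-bt and -0.74 to 0.35 for Alas2. The globin genes turned without CON 2 and without PQQ-H 2, and Alas2 without CON 1, PQQ-H 1, PQQ-H 3 or PQQ-H 4. For PQQ-L vs. CON the range was -0.94 to -0.21 for Hba-a1, -0.88 to -0.26 for Hba-a2, -1.0 to -0.18 for Hbb-bs, -0.94 to -0.20 for Alas2 and -0.84 to 0.016 for Hbb-bt, which turned without CON 1, and for PQQ-H vs. PQQ-L it was -0.11 to 0.83 for Alas2, which turned without PQQ-H 2. With 3 to 5 libraries a group and this spread, estimates smaller than the half-width of their interval (1.10 to 1.54 on the log2 scale) cannot be told from 0, and depth limits mainly Alas2.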
